A study of Mus musculus with 2 samples.

Results

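The loci described are the mouse genes of the synaptic microRNAs miR-129, miR-138, miR-153 and miR-218. They were chosen by name and matched by Ensembl identifier to the rows of both deposited count tables, which gave 7 loci (Mir129-1, Mir129-2, Mir138-1, Mir138-2, Mir153, Mir218-1 and Mir218-2) of 1973. The tables come from microRNA sequencing of total RNA, with a size limit of under 30 in the labels, from 2 B6NCrl mice at postnatal day 0, each library from a single forebrain, named pup 3 and pup 1. They form 1 group with no treatment, so the comparisons are between loci, between duplicated copies, and between these 2 animals (n = 2 throughout). Both pups carry the same donor entry, and sex was not collected.

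A microRNA is cut from a hairpin precursor, and the bases near the 5′ end of the mature strand, the seed, pair with messenger RNAs that it represses. The 4 microRNAs described here are enriched in neurons and act on proteins of the synapse and of the growing axon. miR-138 limits the size of dendritic spines in rat hippocampal neurons by repressing Lypla1, an enzyme that removes palmitate from proteins. miR-129 represses the potassium channel gene Kcna1 in rodent neurons. miR-153 represses Snap25, part of the machinery of vesicle release, in zebrafish. miR-218 is known from motor neurons, and its loci lie within Slit2 and Slit3, whose proteins guide axons through Robo receptors.

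The mature sequences are shown first because they decide which copies can be told apart by a short read. They are those of the RefSeq table for GRCm38.p6, 5′ to 3′, with the seed (bases 2 to 8) in capitals. All 7 loci had a hairpin in that table. The 5p strands of miR-129, miR-138 and miR-218 are each found in the hairpins of both copies, whereas each listed 3p strand is found whole in a single hairpin.
miR-153-5p: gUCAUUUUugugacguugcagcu
miR-153-3p: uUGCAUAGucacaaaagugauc
miR-138-5p: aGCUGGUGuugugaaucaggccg
miR-138-1-3p: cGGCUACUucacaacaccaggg
miR-138-2-3p: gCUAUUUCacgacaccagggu
miR-129-5p: cUUUUUGCggucugggcuugc
miR-129-2-3p: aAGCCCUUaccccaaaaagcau
miR-218-5p: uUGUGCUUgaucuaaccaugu
miR-218-1-3p: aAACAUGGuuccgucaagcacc
miR-218-2-3p: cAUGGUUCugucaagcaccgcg

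The 4 microRNAs share no seed with each other. Among the mature strands in the RefSeq table, 2 loci outside the set carry one of these seeds. Mir7002 carries that of miR-218-5p and Mir496b that of miR-218-1-3p, and both had 0 counts in either pup, which allows up to 1.24 CPM in pup 3 and 1.09 CPM in pup 1. The 3p strands of miR-138-1 and miR-138-2 have a longest common run of 9 nt, and those of miR-218-1 and miR-218-2 one of 10 nt. Neither of these pairs shares a 3p seed.

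The hairpins of the duplicated microRNAs are shown to mark what the copies have in common. Capitals mark the runs of at least 16 nt present in both copies, the longest of which is 24 nt for miR-138, 26 nt for miR-129 and 22 nt for miR-218. In each case the longest covers the whole 5p strand. The miR-129 copies have a second run of 21 nt in common, at positions 55 to 75 of Mir129-2, where the 3p strand takes positions 57 to 78. The copies of miR-138 and of miR-218 share no second run of at least 16 nt.
Mir138-1: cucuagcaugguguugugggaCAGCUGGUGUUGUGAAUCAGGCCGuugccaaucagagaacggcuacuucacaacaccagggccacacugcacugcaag
Mir138-2: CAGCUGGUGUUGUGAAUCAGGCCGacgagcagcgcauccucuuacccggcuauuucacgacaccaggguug
Mir129-1: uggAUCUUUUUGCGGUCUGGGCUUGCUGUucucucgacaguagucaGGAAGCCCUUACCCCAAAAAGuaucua
Mir129-2: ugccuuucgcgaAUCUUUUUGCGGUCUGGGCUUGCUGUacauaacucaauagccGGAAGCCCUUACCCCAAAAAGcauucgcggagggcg
Mir218-1: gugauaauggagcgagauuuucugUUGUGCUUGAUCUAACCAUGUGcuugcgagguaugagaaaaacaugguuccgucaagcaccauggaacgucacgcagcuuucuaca
Mir218-2: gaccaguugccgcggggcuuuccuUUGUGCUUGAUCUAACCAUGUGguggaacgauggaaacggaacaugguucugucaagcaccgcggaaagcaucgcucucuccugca

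Outside these runs the copies diverge. Turning one hairpin into the other takes 45 single-base changes, insertions or deletions for miR-138, 29 for miR-129 and 34 for miR-218. Of all stretches of 20 nt in a hairpin, 5 were shared with another of the 1005 hairpins in the RefSeq table at each miR-138 locus, 9 at each miR-129 locus and 3 at each miR-218 locus. In every case the other hairpin was the copy. None of the 50 such stretches of Mir153 (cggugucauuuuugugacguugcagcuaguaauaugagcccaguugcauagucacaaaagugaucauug) occurred elsewhere in the table. Reads that map to several places stand in a row of their own and are counted at no locus: they were 44.1% of the reads of pup 3 and 42.2% of those of pup 1. The tables give a single count per locus and do not separate its 5p and 3p strands. Counts at a copied locus therefore leave out reads that lie wholly within a shared run, and the level of a copied microRNA as a whole cannot be read from them.

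**Figure D1:**
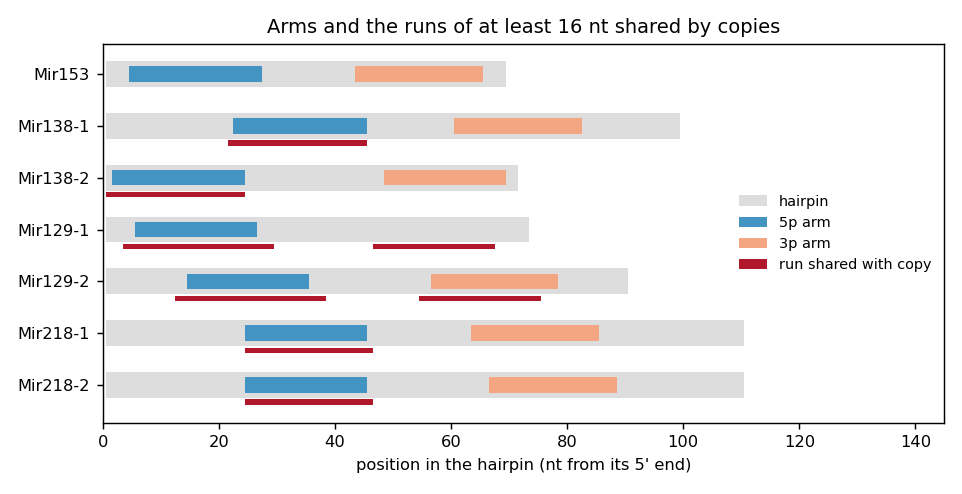
Map of the 7 hairpins, drawn to scale in nt from the 5′ end of each. Grey bars are the hairpins, blue and orange boxes the 5p and 3p strands listed in the RefSeq table, and red lines below a bar the runs of at least 16 nt shared with its copy. A red line spans the whole 5p strand in all 6 copied loci, a second one lies on the 3p side of the miR-129 loci, and Mir153, which has no numbered copy, has none.

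Each locus lies within a longer annotated gene on its own strand, and the kind of host differs between the microRNAs. Coordinates are those of GRCm38 (mm10) in GENCODE M21. Mir153 (chr12:117250817-117250885, plus strand) lies in intron 19 of 22 in the longest transcript of Ptprn2 that spans it, a gene for a membrane protein of dense-core vesicles. It sits 765 kb from the start of that 791 kb gene. The miR-218 copies occupy the same place in related genes: Mir218-1 (chr5:48223942-48224051, plus strand) is in intron 14 of 35 in Slit2, and Mir218-2 (chr11:35616816-35616925, plus strand) is in intron 14 of 35 in Slit3.

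The remaining hosts are annotated as not coding for protein. Mir138-1 (chr9:122682876-122682974, plus strand) overlaps an exon of Gm47135, a transcribed pseudogene of 0.900 kb. Mir138-2 (chr8:94324311-94324381, plus strand) lies in the single exon of the lincRNA C78859. Mir129-1 (chr6:29022619-29022691, plus strand) lies in an exon of the lincRNA Gm3294, and Mir129-2 (chr2:94241364-94241453, minus strand) in intron 2 of 4 of the host transcript Mir670hg. Thus 4 loci are intronic and 3 exonic. The tables hold only miRNA genes, so the level of the hosts was not measured. Of the hosts, Mir670hg also carries other miRNA loci with a row: Mir670, 19.8 kb from Mir129-2, had 50.3 CPM in pup 3 and 59.1 CPM in pup 1, and Gm23630 had 0 counts in both.

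The 7 loci together held 0.439% of the counts assigned to miRNA loci in pup 3 (0.431 to 0.448%, exact 95% bounds by Clopper and Pearson) and 0.712% in pup 1 (0.702 to 0.722%). These counts totalled 2427066 in pup 3 and 2742746 in pup 1. Each interval comes from a single library, so it covers counting error only and not the spread between animals. It takes reads as independent, although copies of a molecule made by PCR count as separate reads. All 7 loci had counts in both pups and passed the minimum of 10 summed counts used below. Levels are given as CPM, counts scaled so that those at all miRNA loci of a library sum to 1000000, with no scaling by length, because a read of this library stands for a short RNA and not for a piece of a long one.

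Mir153, the locus without a copy, was the highest of the 7. It had 5430 counts (2237 CPM) in pup 3 and 11181 counts (4077 CPM) in pup 1, with a mean of 3157 ± 1301 CPM (SD, n = 2). This put it at rank 55 of the 1973 rows. It held 50.9% of the counts of the 7 loci in pup 3 (exact interval 49.97 to 51.9%) and 57.3% in pup 1 (56.6 to 57.99%). The intervals of the pups do not overlap, so the makeup of the set differed between these libraries by more than the counting error of independent reads. Copies made by PCR are not independent, so the true counting error is larger by an unknown amount.

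The miR-138 copies came next. Mir138-1 had 2573 counts (1060 CPM) in pup 3 and 4056 counts (1479 CPM) in pup 1, with a mean of 1269 ± 296 CPM at rank 92. Mir138-2 had 1226 counts (505 CPM) in pup 3 and 1973 counts (719 CPM) in pup 1, with a mean of 612 ± 151 CPM at rank 117. Both copies were lower in pup 3, and the lowest value of Mir138-1 lay above the highest of Mir138-2.

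Of the miR-129 copies, the one in Mir670hg was the higher. Mir129-2 had 893 counts (368 CPM) in pup 3 and 1472 counts (537 CPM) in pup 1, with a mean of 452 ± 119 CPM at rank 129. Mir129-1 had 368 counts (152 CPM) in pup 3 and 518 counts (189 CPM) in pup 1, with a mean of 170 ± 26.3 CPM at rank 181. The ranges of the copies over the pups do not overlap.

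The miR-218 copies were the lowest of the set. Mir218-2, in Slit3, had 143 counts (58.9 CPM) in pup 3 and 266 counts (97.0 CPM) in pup 1, with a mean of 78.0 ± 26.9 CPM at rank 218. Mir218-1, in Slit2, had 30 counts in pup 3 (12.4 CPM, exact interval 8.34 to 17.6) and 49 in pup 1 (17.9 CPM, 13.2 to 23.6), with a mean of 15.1 ± 3.89 CPM at rank 283. The difference of Mir218-1 between the pups did not pass the Fisher's exact test described below (adjusted p = 0.177), and its intervals overlap.

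The order of the 7 loci was the same in both pups, and most neighbours in it differed by more than the spread between animals. Mir153 stood 2.49-fold above Mir138-1 in the mean, Mir138-1 2.07-fold above Mir138-2, Mir129-2 2.66-fold above Mir129-1, Mir129-1 2.18-fold above Mir218-2, and Mir218-2 5.16-fold above Mir218-1. Mir138-2 and Mir129-2, 1.35-fold apart, are the exception: the lower value of Mir138-2 (505 CPM, in pup 3) lies under the higher value of Mir129-2 (537 CPM, in pup 1). Ligation and amplification favour some short RNAs over others, and the shared runs take reads from the copied loci, so differences between loci are less certain than those of a locus between libraries.

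**Figure D2:**
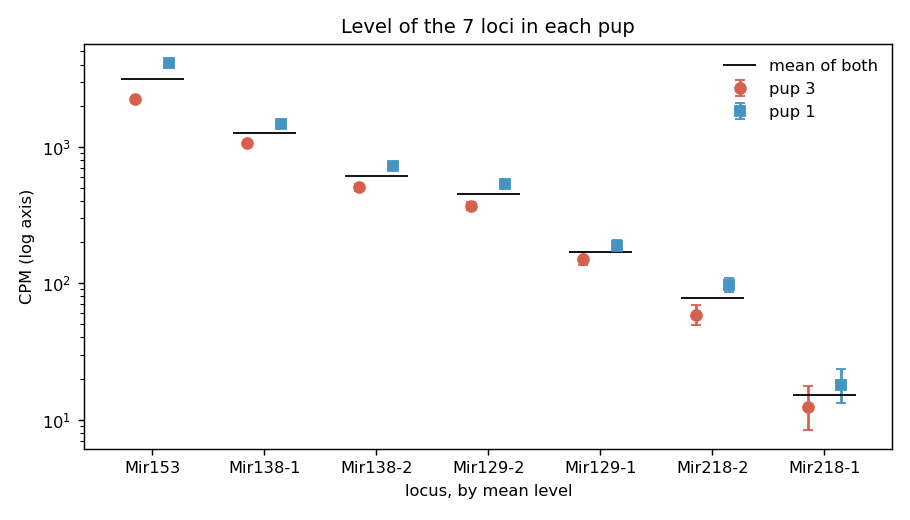
Level of each locus in pup 3 (red circles) and pup 1 (blue squares) in CPM on a log axis, with exact 95% intervals for counting error and the mean of both pups as a line. Pup 3 lies below pup 1 at all 7 loci, from 2237 against 4077 CPM at Mir153 to 12.4 against 17.9 CPM at Mir218-1.

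With 2 libraries, likeness was taken as nearness in mean level. The loci directly above and below each member by mean level were Mir140 (3169 ± 292 CPM) and Mir598 (3080 ± 645 CPM) for Mir153, Mir425 (1285 ± 16.6 CPM) and Mir200b (1269 ± 865 CPM) for Mir138-1, and Mir134 (624 ± 188 CPM) and Mir7-2 (595 ± 73.3 CPM) for Mir138-2. Mir129-2 stood between Mir181a-2 (496 ± 11.1 CPM) and Mir376c (442 ± 204 CPM), and Mir129-1 between Mir542 (176 ± 10.6 CPM) and Mir32 (158 ± 37.5 CPM). Mir218-2 stood between Mir1247 (78.9 ± 32.9 CPM) and Mir27a (77.9 ± 18.7 CPM), and Mir218-1 between Mir582 (16.3 ± 8.44 CPM) and Mir1930 (14.8 ± 2.37 CPM). Every one of these neighbours lay closer to its member in the mean than the SD of that member over the pups.

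The copies of each duplicated microRNA kept nearly the same proportion in both pups. Mir138-2 held 32.3% of the counts of the miR-138 copies in pup 3 (exact interval 30.8 to 33.8%) and 32.7% in pup 1 (31.5 to 33.9%), a difference of -0.45 percentage points. Mir129-2 held 70.8% of the miR-129 counts in pup 3 (68.2 to 73.3%) and 73.97% in pup 1 (71.98 to 75.9%), a difference of -3.15 points. Mir218-2 held 82.7% of the miR-218 counts in pup 3 (76.2 to 87.98%) and 84.4% in pup 1 (79.96 to 88.3%), a difference of -1.79 points. This measure does not depend on how the libraries are scaled. In all 3 microRNAs the same copy was the higher in both pups, and no interval includes 50%.

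None of the 3 pairs passed a two-sided Fisher's exact test of copy by pup, adjusted by Benjamini-Hochberg over all 28 pairs of numbered copies with at least 10 summed counts. The adjusted p was 0.857 for miR-138 and for miR-218 and 0.296 for miR-129, with an unadjusted p of 0.0524 for miR-129. Of the 28 pairs, 3 passed (10.7%): Mir125b, Mir128 and Mir181a. A p that misses the threshold does not show that the proportions are alike, and the intervals above give what the depth allows. The test compares these libraries, each from a single pup.

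The imbalance in counts between these copies lay within the range of the other pairs. Reads that lie wholly within a shared run, which covers the 5p strand, are left out of these counts. For miR-129 the second shared run also covers most of the 3p strand of Mir129-2, and no 3p strand is listed for Mir129-1. The ratios therefore do not give the relative output of the copies. The higher copy stood 2.07-fold (miR-138), 2.66-fold (miR-129) and 5.16-fold (miR-218) above the lower. Over the 23 other pairs for which a ratio could be formed, the ratio had a median of 3.49 and ran from 1.01 (Mir7-2 and Mir7-1) to 286 (Mir9-3 and Mir9-2), and was at least 10 in 6. The median absolute difference in proportion between the pups was 1.79 points over the 3 pairs and 2.09 points over the 25 others.

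**Figure D3:**
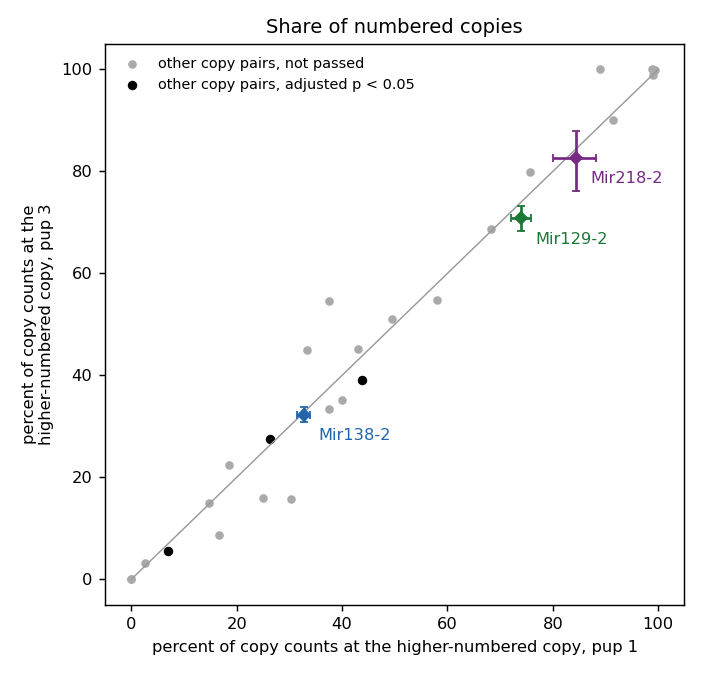
Percent of the summed counts of a pair of numbered copies that fell on the higher-numbered copy, in pup 3 (vertical) against pup 1 (horizontal), with equality as a line. Coloured diamonds with exact 95% intervals are the miR-138, miR-129 and miR-218 pairs, grey and black points the other 25. The diamonds sit near 32%, 72% and 84% on both axes, on or just under the line.

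All 7 loci had a lower share of the counts in pup 3. Relative to library totals, 6 of 7 were lower by a two-sided Fisher's exact test of the counts at the locus against all others, with Benjamini-Hochberg adjustment over 400 loci of at least 10 summed counts, and Mir218-1 did not pass. Of all 400 loci, 46.2% were lower and 10.2% higher by this test, so a lower call was common. The log2 ratio of pup 3 over pup 1, on the scale of CPM + 1, had a median of -0.51 over the 7 loci and of -0.31 over all 400. All 7 lay at or below that overall median with library totals, Mir129-1 by under 0.01. With each of the other scalings below, 6 of 7 lay under the median of all loci and Mir129-1 lay above it. The test compares 1 library with 1 library and takes reads as independent, so its p-values, here and under the other scalings below, cover counting error only and not the spread between animals. That spread, estimated over all 400 loci of both pups as edgeR's common biological coefficient of variation, was 0.215. The labels give no batch, and each library is from 1 pup, so animal, dissection and library cannot be told apart.

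Mir153 had the lowest ratio of the set. Its level in pup 3 was 0.549 of that in pup 1, a log2 ratio of -0.87 (adjusted Fisher's exact p = 6.45e-304). Of 177 loci with at least 1000 summed counts, 6 had a lower ratio. The copies of miR-138 had close ratios, -0.48 for Mir138-1 (adjusted exact p = 8.72e-40) and -0.51 for Mir138-2 (adjusted exact p = 4.13e-22). Mir129-2 had -0.54 (adjusted exact p = 8.98e-19) and Mir129-1 -0.31 (adjusted exact p = 0.00255). Mir218-2 had -0.71 (adjusted exact p = 2.81e-06), while Mir218-1 had -0.50 (adjusted exact p = 0.177).

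The calls of 5 loci held when the libraries were scaled by DESeq2 size factors, which set the typical locus and not the total to be equal. By an exact binomial test on that scale, 20.8% of the 400 loci were lower and 24.5% higher, and the median of all loci was -0.02. Mir153 remained lower at -0.55 (adjusted exact p = 7.45e-122), as did Mir218-2 at -0.40 (adjusted exact p = 0.0165), Mir129-2 at -0.23 (adjusted exact p = 0.000491), Mir138-2 at -0.20 (adjusted exact p = 0.000544) and Mir138-1 at -0.17 (adjusted exact p = 1.49e-05). Mir129-1, at -0.0033, and Mir218-1, at -0.20, did not pass. With TMM, edgeR's scaling, 26% of all loci were lower and 20.5% higher, and 5 of the 7 loci were lower, again without Mir129-1 and Mir218-1.

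**Figure D4:**
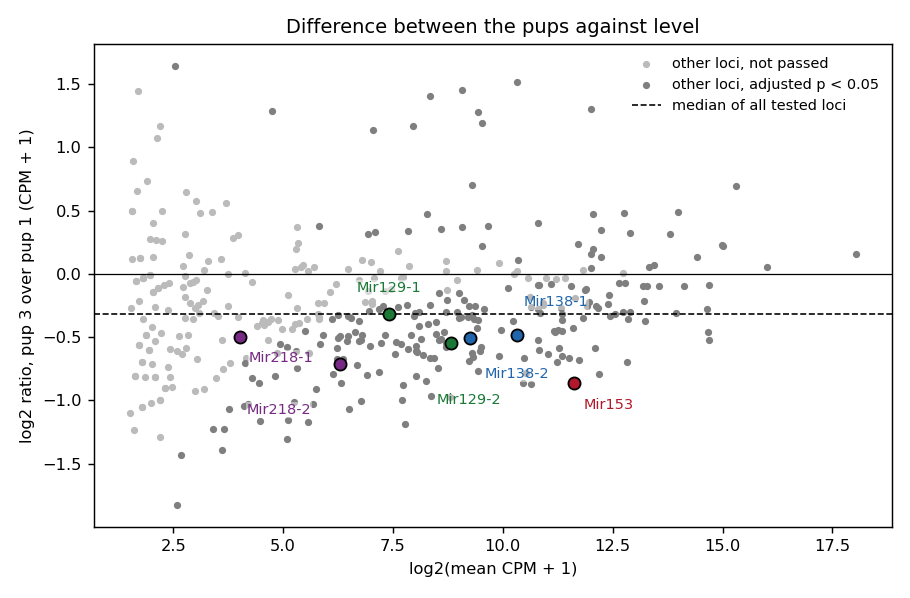
Log2 ratio of pup 3 over pup 1 (CPM + 1) against log2 of the mean CPM + 1 for the 400 tested loci, with the 7 loci coloured and named, other loci in grey (dark where the adjusted p passed), 0 as a solid and the overall median of -0.31 as a dashed line. The 7 loci lie at or under the dashed line, with Mir153 lowest at -0.87.

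Other neuronal and synaptic microRNAs did not all move with the set. Of a list of 19 (members of miR-124, miR-9 and miR-128, and Mir137, Mir132, Mir212, Mir134, Mir485, Mir383, Mir184, Mir488, Mir873a, Mir329 and Mir188), 18 (all but Mir9-1) had a row and 16 were tested: 9 were lower in pup 3, 3 higher and 4 did not pass. With size factors 4 were lower, 6 higher and 6 did not pass. The shares over all 400 loci were 46.2% lower and 10.2% higher with totals, and 20.8% and 24.5% with size factors. The list median was -0.35 with totals and -0.04 with size factors, near those of all loci. Reads that map to several places are left out, so any common to the copies of miR-124 or of miR-9 are not counted. Mir124a-1 had 8.65 CPM in pup 3 and 5.47 CPM in pup 1. The order in the list is therefore of counts at loci and does not rank the microRNAs as a whole. The highest loci of the list were Mir137, with 23308 CPM in pup 3 and 28264 CPM in pup 1, Mir128-1, with 11337 CPM in pup 3 and 10765 CPM in pup 1, and Mir128-2, with 4309 CPM in pup 3 and 3858 CPM in pup 1. Mir128-1 and Mir128-2, both higher in pup 3, thus went the other way from Mir153. Mir134, which limits dendritic spines in rat neurons by repressing Limk1, had a log2 ratio of -0.62 and stayed lower with size factors at -0.31. Mir873a had a lower ratio, -0.80 with totals and -0.49 with size factors. Mir137 was lower with totals at -0.28 but higher with size factors at 0.04.

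Markers of other cells and regions were read beside these differences, and their part in them was not tested. Of all 400 loci, 46.2% were lower and 10.2% higher with totals, and 20.8% lower and 24.5% higher with size factors. Loci of the Hox clusters, which mark hindbrain and spinal cord, where miR-218 is also made, summed to 268 CPM in pup 3 and 236 CPM in pup 1. Of the 4 tested, 2 were higher in pup 3 and none lower. Mir218-2 was lower in pup 3, and Mir218-1 did not pass. Mir196a-1 had no count. The oligodendrocyte loci Mir338, Mir219a-1 and Mir219a-2 summed to 550 CPM in pup 3 and 729 CPM in pup 1, with 2 of 3 lower, and 1 with size factors. Mir126a, of endothelium, was higher in pup 3, at 35573 CPM against 30517 CPM in pup 1. Loci of microglia and white blood cells summed to 387 CPM in pup 3 and 395 CPM in pup 1, with no count at Mir142b. Of the 3 tested, 1 was lower and none higher with totals, while with size factors 1 was lower and 2 were higher. Red blood cell loci summed to 71.3 CPM in pup 3 and 88.2 CPM in pup 1, with 1 of 3 lower, and none with size factors. Muscle loci summed to 4.53 CPM in pup 3 and 7.29 CPM in pup 1, and 4 of their 5 rows were at 0. Mir142 and Mir1a-2, also listed, had no row. Reads common to numbered copies, such as those of Mir133a, Mir196a or Mir219a, are counted at no locus. The sums can therefore be too low, and a count of 0 at such a copy does not show that its microRNA was absent. In bulk tissue, fewer cells of a type and less of a microRNA per cell cannot be told apart.

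No read was assigned to the strand opposite any of the loci. All 7 loci had 0 counts on it in both pups, which allows up to 1.24 CPM in pup 3 and 1.09 CPM in pup 1. In the tables as a whole, 36 loci in pup 3 and 45 in pup 1 had counts on the opposite strand. At Mir129-2 the value also covers Mir129b, a locus annotated on the other strand of the same hairpin, which had no row of its own. Reads of Mir129b that lie opposite the runs shared with Mir129-1 map to several places and are in neither value.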

How the data were processed

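For each library the authors deposited raw counts of reads at each miRNA gene, on assembly mm10 with annotation M4 per the text deposited with the files. The aligner and its version were not given in the sources used here, nor was the counter. Counts on the strand of the gene were taken. The 4 rows that name no gene were left out of totals: unmapped reads were 12.3% of 5883027 reads in pup 3 and 13.4% of 6657203 in pup 1. Identifiers were matched without their version to GENCODE M21 (1894 of 1973 rows named). Copy pairs are symbols that differ only in the number after the hyphen. Stability of hairpins was computed with RNAfold. The members and lists were chosen with earlier results of these data known. The rule named the members, their neighbours in level, the extremes of copy ratio, seed sharers and the highest members of the neuronal and non-forebrain lists, the second given mostly as sums. Further list members and markers, the copy pairs that passed, host-gene mates and Mir129b fall outside it and were named after their values were seen. With 1 group there is no contrast for a quasi-likelihood test; edgeR (TMM) and DESeq2 gave scalings, each tested by an exact binomial test, and edgeR the common variation between the pups. Ratios used a pseudocount of 1 CPM, and calls an adjusted p of 0.05. Tests were checked on simulated counts drawn with counting error only, so the check does not cover the spread between animals. Alternatives were other scalings, strands, denominators, filters and pseudocounts, and leaving out a replicate. Tests were run with scipy 1.17.1 on numpy 2.4.6 and pandas 2.3.3 under Python 3.11.15, scalings with DESeq2 1.42.0 and edgeR 4.0.16 under R 4.3.3, folds with RNAfold 2.7.2, and plots with matplotlib 3.10.9.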

Additional observations from a re-analysis of the deposited data

How the results depend on the processing

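Over 7 loci and 8 alternatives, all 56 log2 ratios stayed negative, and 54 kept their side of the threshold. The exceptions were Mir129-1 with TMM (-0.066, adjusted exact binomial p = 0.674) and with size factors (-0.0033, adjusted p = 1), which by construction take the typical locus as unchanged. Calls over all loci changed with the same scalings: 82 higher and 104 lower with TMM, and 98 and 83 with size factors, against 41 and 185 with library totals. Several alternatives could hardly move a member, so the count of 54 overstates how far the results were probed. The pseudocounts cannot change the sign of a ratio or its p-value, and the filters change only the adjustment. Counting both strands added nothing at the 7 loci and altered only the totals. Of levels, those without the most abundant locus in the total were 4297 (Mir153), 1732 (Mir138-1), 835 (Mir138-2), 617.0 (Mir129-2), 233 (Mir129-1), 106 (Mir218-2) and 20.6 CPM (Mir218-1). Per 1000000 of all reads they were 1301 (Mir153), 523 (Mir138-1), 252 (Mir138-2), 186 (Mir129-2), 70.2 (Mir129-1), 32.1 (Mir218-2) and 6.23 (Mir218-1). Both shifts follow from the denominator and keep the order of the loci. Leaving out a replicate leaves the value of the other pup and no ratio between pups. The number of copy pairs that differed was 3 with both strands and with either other filter. No paired analysis was possible because there is 1 group. Depth limits Mir218-1, the only member under 100 summed counts.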

Other observations

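The predicted folds of the hairpins varied within pairs of copies. The minimum free energy from RNAfold was -45.5 kcal/mol for Mir138-1 and -29.3 for Mir138-2, -48.0 for Mir129-2 and -31.0 for Mir129-1, and -42.3 for Mir218-2 and -36.6 for Mir218-1, against -30.8 for Mir153. Per nucleotide, 89.5% of the 1005 hairpins in the RefSeq table were less stable than Mir129-2, and 22.4% were less stable than Mir218-1. In each of the 3 pairs the copy with the more stable fold, per hairpin and per nucleotide, was also the one with more counts. The annotated hairpins differ in length for miR-138 (99 nt for Mir138-1, 71 nt for Mir138-2) and miR-129 (90 nt for Mir129-2, 73 nt for Mir129-1). Both miR-218 hairpins have 110 nt. How far the energies follow from where the annotation ends was not tested. The counts also leave out reads that lie wholly within a shared run. With 3 pairs this is a description, and no test was made.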
